A study of Homo sapiens with 6 samples.

Results

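A set of 9 genes that carry or restrain the death receptor signal were taken by name from the count and FPKM tables: FAS, TNFRSF1A, TNFRSF10A, TNFRSF10B, TNFRSF10D, RIPK1, CASP8, CFLAR and BIRC2. All 9 had a row among the 50550 rows of the count table. Of these, 8 had a count in at least 1 library and 7 had enough counts to be tested. The libraries came from U2OS, a human osteosarcoma cell line, and were prepared from total RNA with a TruSeq RNA kit. A group of 3 carries the title Lv_LINC00673 and the genotype LINC00673, which the study describes as a knockdown of the long noncoding RNA LINC00673. The other 3 carry the title Lv_NC and the genotype NC. The labels give no agent, time, clone or culture for either group (n = 3 each), so a p-value here reflects only how far these libraries vary among themselves, and that variation may be technical. The comparison is between libraries with these 2 labels.

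Death receptors of the TNF receptor family sit in the plasma membrane and, when a ligand such as FAS ligand, TRAIL or TNF binds, recruit adaptors through a death domain. The adaptor FADD brings in the initiator caspase CASP8, which starts apoptosis unless the caspase-like protein CFLAR, also called c-FLIP, takes part in the complex and restrains it. At the TNF receptor the kinase RIPK1 is the scaffold, and the ubiquitin ligase BIRC2, also called cIAP1, marks it with ubiquitin and so steers the cell towards NF-kappaB signalling and survival.

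Total counts ranged from 61815841 to 87227980 per library. LINC00673 itself stood at 6.54, 6.23 and 6.38 CPM (the count of a gene relative to the TMM-scaled total of its library) in the Lv_LINC00673 libraries and at 9.16, 9.27 and 7.07 CPM in the Lv_NC libraries. The groups did not overlap, but the difference did not pass the test (log2 fold change -0.41, SE 0.16, edgeR quasi-likelihood adjusted p = 0.0924), in this fit or in any of 20 alternatives, and was -0.20 (adjusted p = 0.315) once base composition and transcript length were taken into account as set out in the next paragraph. Of 8 bone and mesenchymal markers, 5 were tested, and VIM, SPARC and COL1A1 were abundant, while COL1A2, BGLAP and SP7 were too low to test. Of the 5, 3 were higher in the Lv_LINC00673 libraries and 1 was lower, and the list summed to 3156 to 3530.1 CPM there and to 2744 to 2963 CPM in the Lv_NC libraries, whose part in the results below was not tested. The 5 blood and immune markers summed to at most 0.466 CPM in any library, with HBB at 0. The 3 epithelial markers summed to 2.67 to 4.26 CPM. The 3 endothelial markers summed to 4.82 to 6.17 CPM in the Lv_LINC00673 libraries and to 3.49 to 4.03 CPM in the Lv_NC libraries, with no overlap. None of these 6 genes passed the test, and VWF came closest (log2 fold change 0.72, adjusted p = 0.0639). The part of these cell types in the results below was not tested. In bulk RNA, fewer cells of a kind and less RNA per cell cannot be told apart.

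The libraries also differed by the base composition of their transcripts, and this bears on several of the values below. Genes of the tenth with the lowest GC content had median log2 levels, centred per gene over the 6 libraries, of 0.03, 0.55 and 0.42 in Lv_LINC00673 replicates 1 to 3. The same genes had -0.06, -0.65 and -0.26 in Lv_NC replicates 1 to 3. All 3 Lv_LINC00673 libraries were therefore above all 3 Lv_NC libraries for AT-rich transcripts, most in replicate 2 of each group. Each member is therefore given with a second fit, in which every library's dependence on GC content and transcript length entered as an offset. Whether that dependence is technical was not tested.

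At the threshold of an adjusted p of 0.05, RIPK1 and BIRC2 were higher in the Lv_LINC00673 libraries, TNFRSF10B was lower, and FAS, TNFRSF1A, CFLAR and CASP8 did not pass. That is 3 of the 7 tested members, beside 26.8% of all 21933 genes tested (14.3% higher and 12.5% lower). With the offset the same 3 members passed in the same directions, beside 32.6% of the 16767 genes that could enter that fit (16.7% higher and 15.9% lower). The groups did not overlap for 5 of the 7 members, beside 45.1% of all genes tested (23.7% higher and 21.4% lower). The median log2 fold change of the 7 was -0.04, beside 0.05 over all tested genes. No test was made of the members as a set, and the description is of single genes.

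**Figure D1:**
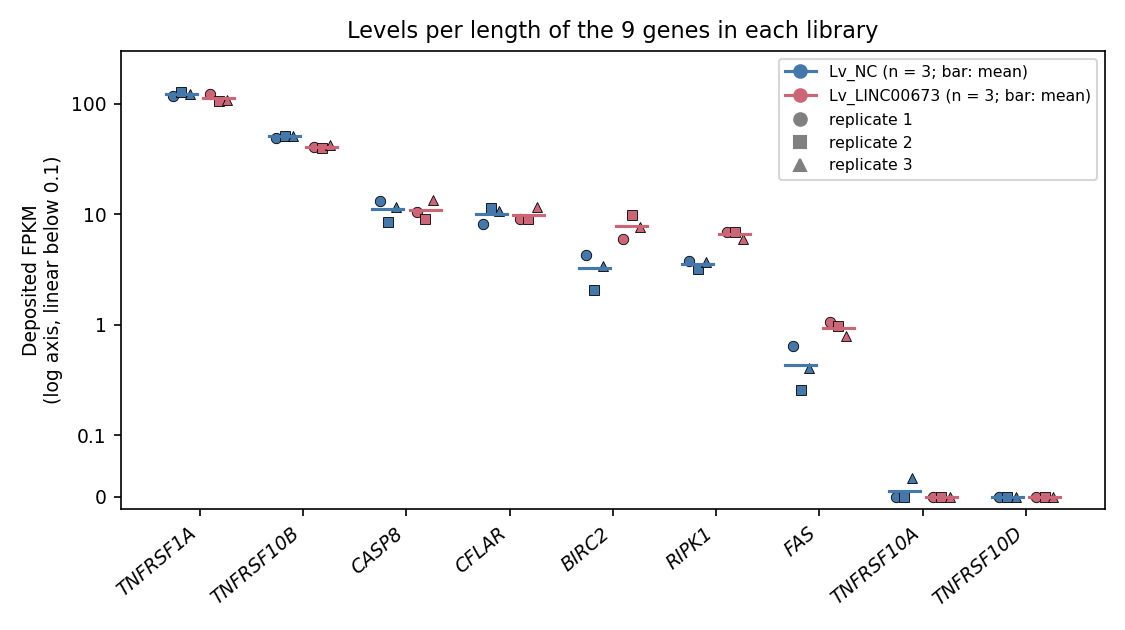
Deposited FPKM of the 9 genes in each library (log axis, linear below 0.1), with blue for Lv_NC, red for Lv_LINC00673, a marker shape for each replicate number and a bar for the mean (n = 3). TNFRSF1A and TNFRSF10B lie above all others, RIPK1, BIRC2 and FAS have red points above all blue ones, and TNFRSF10A and TNFRSF10D lie at or near 0.

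Among the receptors of the set, TNFRSF1A, the main TNF receptor of most cells, had the highest level per length, with deposited FPKM of 122, 106 and 108 in Lv_LINC00673 replicates 1 to 3 and 118, 127 and 122 in Lv_NC replicates 1 to 3. TNFRSF10B, the TRAIL receptor also called DR5, was next of these at 40.1, 39.7 and 42.2 FPKM against 49.2, 51.1 and 51.2. FAS, the receptor of FAS ligand, was far below both, at 1.07, 0.970 and 0.797 FPKM against 0.639, 0.260 and 0.409. The ranges of these 3 receptors over the 6 libraries did not overlap, so their order held in every library. Of the receptors outside the set, TNFRSF12A (252 and 339.5 FPKM, means of Lv_LINC00673 and Lv_NC) lay above TNFRSF1A, and LTBR (63.9 and 78.7 FPKM) lay above TNFRSF10B.

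TNFRSF10B (chromosome 8, 23020133 to 23069031 in GRCh38.p14) was the only receptor among the 9 to pass the test. It stood at 161, 151 and 163 CPM in the Lv_LINC00673 libraries and at 211, 226 and 221.5 CPM in the Lv_NC libraries. The replicates of each group lay close together and the groups were well apart. The mean was 158 ± 6.43 (SD, n = 3) against 219.5 ± 7.37 CPM, or 72.0% of the Lv_NC level (95% interval 63.6 to 81.6%). The log2 fold change was -0.47 (SE 0.08, edgeR adjusted p = 0.00605). With the GC and length offset it was -0.19 (SE 0.05, edgeR adjusted p = 0.0159). The call held without any 1 library. Its end overlaps that of RHOBTB2, which had 2783 to 4454 counts per library.

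The other 2 TRAIL receptors among the members were all but undetected. TNFRSF10A, or DR4 (chromosome 8, 23190452 to 23225102), signals death as TNFRSF10B does. It had 0 counts in 5 libraries and 7 counts in Lv_NC replicate 3. TNFRSF10D, or DcR2 (chromosome 8, 23135588 to 23164027), is a decoy with a truncated death domain, and had 0 counts in all 6 libraries. A count of 0 allows up to 3 counts, which is 0.0344 to 0.0485 CPM at these depths, for counting error only. TNFRSF10B had 83790 counts summed over the same libraries. TRAIL receptor RNA in these cells was therefore almost all TNFRSF10B among these 3 genes, and no change of the other 2 was detectable.

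TNFRSF1A (chromosome 12, 6328771 to 6342076) stood at 268, 222 and 228 CPM in the Lv_LINC00673 libraries and at 278, 308 and 288 CPM in the Lv_NC libraries. The groups did not overlap, though Lv_LINC00673 replicate 1 was close to Lv_NC replicate 1. The mean was 239 ± 25.0 (SD, n = 3) against 291 ± 15.4 CPM, a log2 fold change of -0.29 (SE 0.10) that did not pass the test (edgeR adjusted p = 0.0586). Leaving out Lv_LINC00673 replicate 1 brought it to -0.39, past the threshold (adjusted p = 0.0136), and it also passed with RLE factors (-0.31), DESeq2 (-0.32) and limma-voom (-0.29). With the offset the difference was 0.03 (95% interval -0.08 to 0.14, adjusted p = 0.682). Its transcripts are GC-rich (57.8%), and its order over the 6 libraries was that of the tenth of genes with the highest GC content.

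FAS (chromosome 10, 88964050 to 89017059) stood at 3.58, 3.42 and 2.86 CPM in the Lv_LINC00673 libraries and at 2.56, 1.07 and 1.63 CPM in the Lv_NC libraries. Every Lv_LINC00673 library was above every Lv_NC library, but the Lv_NC values spread more than the gap between the groups. The mean was 3.29 ± 0.378 (SD, n = 3) against 1.75 ± 0.750 CPM, or 1.87-fold, which did not pass the test (log2 fold change 0.91, SE 0.31, edgeR adjusted p = 0.0593). With the offset it was 0.76 (SE 0.26, adjusted p = 0.0507). The call depended on the setting, since 9 of 20 alternatives put it past the threshold, among them leaving out Lv_NC replicate 1 (log2 fold change 1.28, adjusted p = 0.0126). FAS overlaps ACTA2, which had 145 to 214 counts per library, and the antisense gene FAS-AS1, which had 1 to 16. The part of these overlaps in the FAS counts was not tested. No source used here says whether the counting used strand, and FAS itself had only 87 to 262 counts per library.

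**Figure D2:**
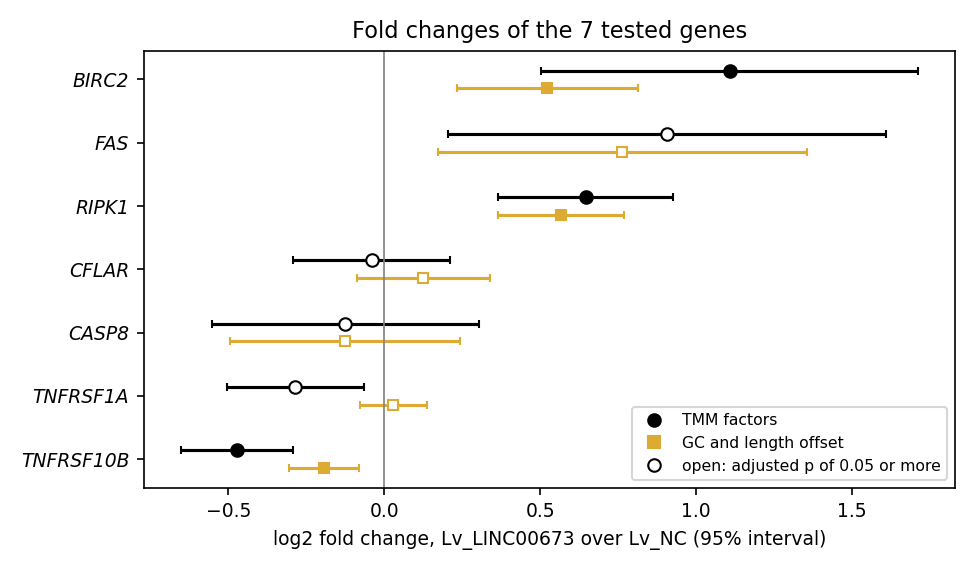
Log2 fold change of the 7 tested genes, Lv_LINC00673 over Lv_NC (horizontal axis, 95% intervals), with TMM factors (black circles) and with the GC and length offset (yellow squares), filled where the adjusted p is under 0.05. RIPK1 hardly moves between the fits (0.65 and 0.57), BIRC2 moves from 1.11 to 0.52, and TNFRSF1A moves from -0.29 to 0.03.

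Of the members inside the cell, CASP8 and CFLAR had the highest mean levels per length, at 8.57 to 13.3 and 8.11 to 11.5 FPKM over the 6 libraries, and their ranges overlapped. In Lv_LINC00673 replicate 2 BIRC2, at 9.89 FPKM, was above both (9.11 and 9.03 FPKM), and its range overlapped theirs. BIRC2 (2.05 to 9.89 FPKM) and RIPK1 (3.17 to 6.92 FPKM) overlapped each other too, with RIPK1 above BIRC2 in the Lv_NC mean (3.56 and 3.24 FPKM) and below it in the Lv_LINC00673 mean (6.58 and 7.82 FPKM).

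RIPK1 rose in the Lv_LINC00673 libraries, with nearly the same fold change in both fits. RIPK1 (chromosome 6, 3063967 to 3115187) stood at 24.9, 26.9 and 23.6 CPM in the Lv_LINC00673 libraries and at 16.9, 14.7 and 16.7 CPM in the Lv_NC libraries. Both groups were tight and lay well apart. The mean was 25.1 ± 1.67 (SD, n = 3) against 16.1 ± 1.20 CPM, or 1.56-fold (95% interval 1.29 to 1.90), with a log2 fold change of 0.65 (SE 0.12, edgeR adjusted p = 0.00873). With the offset it was 0.57 (SE 0.09, adjusted p = 0.00177), and it passed in 19 of 20 alternatives. The lncRNA LOC107986556, which overlaps RIPK1, had 3 to 19 counts per library. By the smallest root mean square difference of centred log2 CPM over the 6 libraries, the genes most like RIPK1 among 12123 were MED12 (0.039) and ANKEF1 (0.039).

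CASP8 and CFLAR lie on chromosome 2 with 56.8 kb between them. CASP8 (201233463 to 201287711) stood at 25.4, 20.1 and 30.1 CPM in the Lv_LINC00673 libraries and at 31.2, 21.6 and 29.5 CPM in the Lv_NC libraries. CFLAR (201116164 to 201176687) stood at 43.9, 52.0 and 52.9 CPM against 48.0, 55.3 and 49.8 CPM. The groups overlapped for both genes, and replicate 2 was the lowest library of its group for CASP8. The log2 fold change was -0.13 for CASP8 (SE 0.19, 95% interval -0.55 to 0.30, edgeR adjusted p = 0.663). For CFLAR it was -0.04 (SE 0.11, 95% interval -0.29 to 0.21, edgeR adjusted p = 0.816). The intervals leave room for changes in either direction, so the data do not show that either gene was unchanged. With the offset taken from the longest transcript of each gene, which for CFLAR is 14672 bases where the median is 2092, CFLAR was at -0.72 (adjusted p = 0.00577), and with the median transcript it was at 0.13 (adjusted p = 0.352).

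The balance of the initiator caspase and its inhibitor was compared as the FPKM ratio of CFLAR to CASP8 within each library. It was 0.868, 0.992 and 0.864 in the Lv_LINC00673 libraries and 0.622, 1.34 and 0.931 in the Lv_NC libraries. The Lv_NC libraries enclosed all 3 Lv_LINC00673 values. The mean log2 ratios differed by -0.02 (exact permutation test, two-sided, p = 1, where 0.1 is the smallest p that 3 against 3 allows). The length by which the authors' FPKM divides CFLAR was not fixed. It came to between 4.42 and 6.23 kb across libraries, a spread of 1.41 times, beside 1.00 to 1.16 times for the other tested members. The ratio of raw counts, which does not use that length, differed by 0.08 on the log2 scale (exact permutation p = 0.5). The antisense gene CFLAR-AS1 lies inside CFLAR and had 53 to 78 raw counts in the Lv_LINC00673 libraries and 106 to 164 in the Lv_NC libraries, which were deeper.

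BIRC2 (chromosome 11, 102347214 to 102378670) had the largest fold change of the 7 tested members with TMM factors, while with the offset FAS (0.76) and RIPK1 (0.57) were above it (0.52). It stood at 22.6, 35.8 and 28.1 CPM in the Lv_LINC00673 libraries and at 17.6, 8.62 and 13.9 CPM in the Lv_NC libraries. The groups did not overlap, and replicate 2 was the highest library of one group and the lowest of the other. The mean was 28.8 ± 6.62 (SD, n = 3) against 13.4 ± 4.5 CPM, or 2.15-fold (95% interval 1.42 to 3.27), with a log2 fold change of 1.11 (SE 0.27, edgeR adjusted p = 0.0180). The call was lost without Lv_LINC00673 replicate 2 (0.91, adjusted p = 0.0687), Lv_LINC00673 replicate 3 (1.12, adjusted p = 0.0562) or Lv_NC replicate 3 (1.13, adjusted p = 0.0625).

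The BIRC2 values followed the GC pattern of the libraries. Its transcripts are AT-rich (38.05% GC), and its centred log2 CPM of 0.24, 0.91, 0.56, -0.12, -1.14 and -0.45 ranked the 6 libraries as the tenth of genes with the lowest GC content did. With the offset the fold change was 1.44-fold (log2 0.52, SE 0.13, edgeR adjusted p = 0.0132), smaller and still past the threshold. The genes most like BIRC2 over the 6 libraries were CFAP97 (root mean square difference 0.036) and NEK7 (0.048), at log2 fold changes of 1.06 and 1.12.

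**Figure D3:**
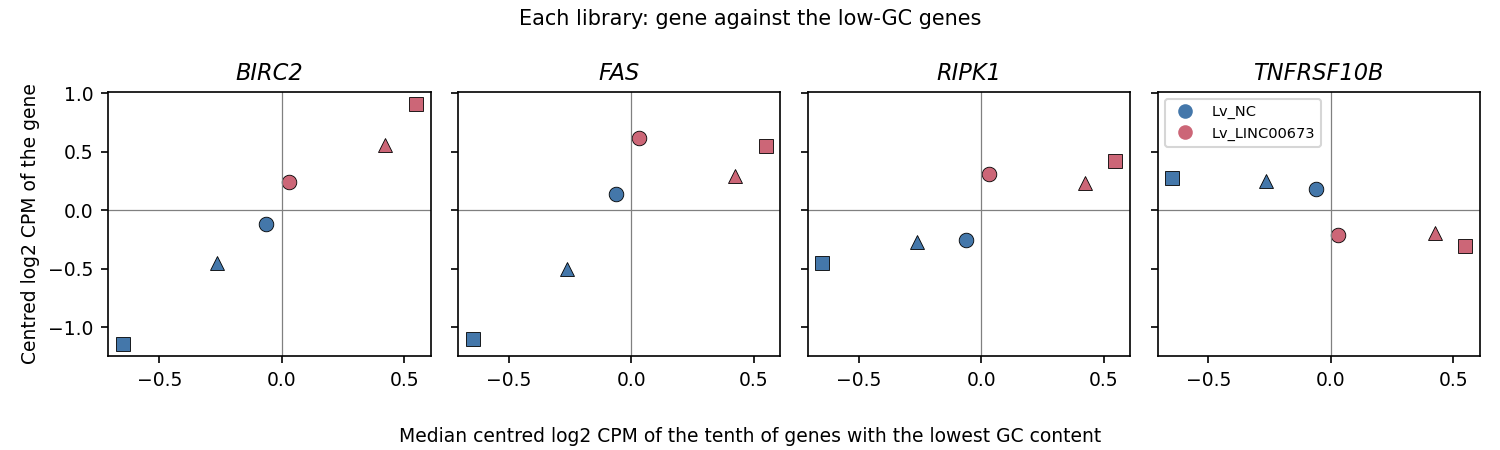
For BIRC2, FAS, RIPK1 and TNFRSF10B, the centred log2 CPM of the gene in each library (vertical axis) against the median centred log2 CPM of the tenth of genes with the lowest GC content (horizontal axis), in red for Lv_LINC00673 and blue for Lv_NC. BIRC2 rises along the horizontal axis from -1.14 in Lv_NC replicate 2 to 0.91 in Lv_LINC00673 replicate 2, while RIPK1 and TNFRSF10B form 2 separate groups.

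BIRC2 has a neighbour of the same family, BIRC3 or cIAP2, 7.81 kb away on chromosome 11, and only BIRC2 of the pair passed the test. BIRC3 stood at 2.57, 5.23 and 3.83 CPM in the Lv_LINC00673 libraries and at 5.81, 2.44 and 5.20 CPM in the Lv_NC libraries. The groups overlapped, and the log2 fold change was -0.21 (SE 0.36, edgeR adjusted p = 0.702), near 0 (0.00) without Lv_LINC00673 replicate 1 and 0.02 without Lv_NC replicate 1. With the offset BIRC3 was lower in the Lv_LINC00673 libraries (log2 fold change -0.84, edgeR adjusted p = 0.0196), while BIRC2 stayed higher. BIRC3 passed in only 2 of 20 alternatives, the offset from the median transcript and that from the longest. It did not pass with the offset and the replicate number as a block. The difference between the 2 genes was not tested.

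Both BIRC3 and CFLAR are known targets of NF-kappaB, whose dimers bind the kappaB element. Since BIRC2, BIRC3 and CFLAR act on the same receptor complexes, sequences before a start of each are shown, from 220 to 81 bases before the first start that the RefSeq promoter table lists for each gene (GRCh38.p14, plus strand). For CFLAR that start lies inside the span of the gene given above, so the stretch is not upstream of its outermost start. Capitals mark each match to the kappaB consensus, searched on both strands.
BIRC2 (chr11:102346994-102347133): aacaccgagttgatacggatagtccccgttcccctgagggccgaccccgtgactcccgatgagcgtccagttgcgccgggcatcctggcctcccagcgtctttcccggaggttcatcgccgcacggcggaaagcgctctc
BIRC3 (chr11:102317264-102317403): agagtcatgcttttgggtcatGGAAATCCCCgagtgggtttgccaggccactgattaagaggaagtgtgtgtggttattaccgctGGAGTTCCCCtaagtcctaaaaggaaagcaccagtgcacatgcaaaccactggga
CFLAR (chr2:201118496-201118635): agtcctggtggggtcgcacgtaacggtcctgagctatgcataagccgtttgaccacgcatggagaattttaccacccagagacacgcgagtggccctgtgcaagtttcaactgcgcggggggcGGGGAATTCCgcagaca
BIRC3 has 2 matches, which begin 199 and 135 bases before the start, CFLAR has 1, at 97 bases, and the BIRC2 stretch has 0. The search covered 250 bases before to 50 bases after each of these starts. It found no further match there, so the stretch shown holds every match of these windows. Of the 17 promoter windows of 300 bases read for BIRC3 and the members on chromosomes other than 8, 3 held a match, the third being at a later start of FAS. Over all 35116 RefSeq windows of that length 11.3% held at least 1 match and 2.04% held at least 2. A match is a description of these letters, and no binding was measured.

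**Figure D4:**
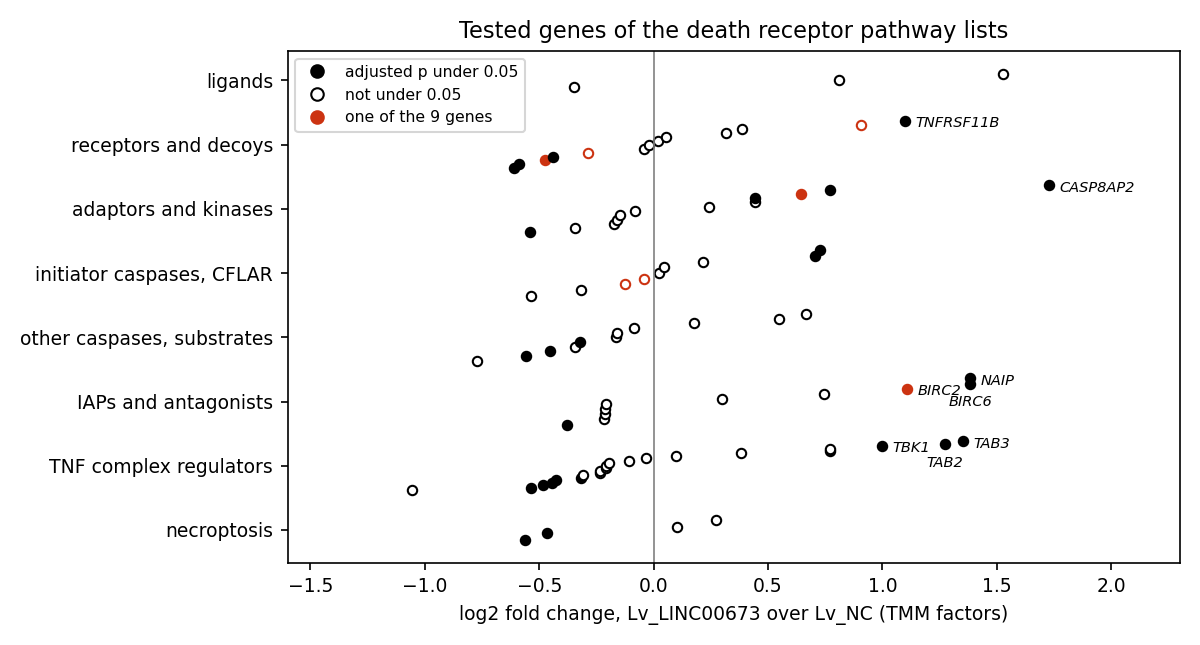
Log2 fold change (Lv_LINC00673 over Lv_NC, horizontal axis) of each tested gene in 8 lists of the death receptor pathway (rows), filled where the adjusted p is under 0.05 and red for the members. Filled points lie on both sides of 0, from TNFRSF21 at -0.61 to CASP8AP2 at 1.73.

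Around the members, 8 lists of the pathway held 87 other genes, of which 76 were tested. Of these, 12 were higher, 15 were lower and 49 did not pass, beside 14.3% higher and 12.5% lower of all 21933 genes tested. With the offset 8 were higher and 18 lower, beside 16.7% and 15.9% of the 16767 genes in that fit. No test was made of the lists, and the same shares stand beside the count of each list below. Without Lv_LINC00673 replicate 2 the counts were 7 and 8, without Lv_LINC00673 replicate 3 they were 7 and 9, without Lv_NC replicate 2 they were 8 and 9, and without Lv_NC replicate 3 they were 7 and 7. The number of all genes called fell too, from 5883 to 2716, 2832, 3631 and 2913 in the same order. It was 6490 without Lv_LINC00673 replicate 1 and 5613 without Lv_NC replicate 1.

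Of the death ligands, 3 of 8 were tested and none passed (median log2 fold change 0.81; 0.073 with the offset), and FASLG, TNF and TNFSF10, the gene of TRAIL, were among those too low to test. Of 10 other receptors tested, 1 was higher and 3 were lower (median -0.00), and 1 and 2 with the offset (median 0.11). TNFRSF11B, the soluble decoy osteoprotegerin that binds RANKL and TRAIL, was at 22.7 ± 1.24 against 10.6 ± 1.05 CPM (SD, n = 3, log2 fold change 1.10, edgeR adjusted p = 0.00342). TNFRSF21, or DR6, was at 36.9 ± 2.92 against 56.2 ± 1.73 CPM (log2 fold change -0.61, edgeR adjusted p = 0.00569). These 2 kept fold changes of 0.81 and -0.59 with the offset. TNFRSF12A, the receptor of TWEAK, fell by 0.59 on the log2 scale (adjusted p = 0.00907; -0.20 with the offset).

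Of 11 other adaptors and kinases tested, 3 were higher and 1 was lower (median -0.08). The offset fit had 2 higher and 3 lower (median 0.10). CASP8AP2, which binds CASP8, had the largest fold change here, at 3.32 ± 0.588 against 1.00 ± 0.226 CPM (SD, n = 3, log2 fold change 1.73, edgeR adjusted p = 0.00452; 0.97 with the offset). TRAF5 rose by 0.77 on the log2 scale (adjusted p = 0.0245), a call lost with the offset (0.26) and without replicate 2 or 3 of either group (adjusted p 0.0643 to 0.0944). TRAF2, which carries BIRC2 to the TNF receptor complex, was the 1 lower gene with TMM factors. It was at 111 ± 11.3 against 161.5 ± 13.9 CPM (log2 fold change -0.54, edgeR adjusted p = 0.00922, and -0.24 with the offset). It lay outside the rule for named genes and was chosen after its values were seen.

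Of 7 other genes of the initiator list, 2 were higher and none was lower (median 0.05). The counts were 1 higher and 1 lower with the offset (median 0.07). CASP2 was at 32.5 ± 2.58 against 19.98 ± 0.340 CPM (SD, n = 3, log2 fold change 0.70, edgeR adjusted p = 0.00534; 0.59 with the offset). APAF1, the scaffold of the apoptosome, rose by 0.73 on the log2 scale (adjusted p = 0.0276), a call lost with the offset (0.07) and without replicate 2 or 3 of either group (adjusted p 0.0671 to 0.105). It was also lost with limma on log2(FPKM + 1) (0.23) and log2(FPKM + 0.1) (0.38). The initiators CASP9 (-0.32, adjusted p = 0.130) and CASP10 (0.22, adjusted p = 0.599) did not pass.

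Of 11 executioner and inflammatory caspases and substrates tested, none was higher and 3 were lower (median -0.17). The offset fit had 1 higher and 4 lower (median -0.23). DFFA, the inhibitor of the apoptotic nuclease, was at 152 ± 9.39 against 207 ± 12.3 CPM (log2 fold change -0.45, edgeR adjusted p = 0.00921; -0.48 with the offset). Its call was lost with limma on log2(FPKM + 1) (-0.27) and log2(FPKM + 0.1) (-0.28). CASP4 fell by 0.56 on the log2 scale (adjusted p = 0.0435), a call lost without replicate 1 or 3 of either group (adjusted p 0.0942 to 0.137), with library totals (-0.39) and with limma on log2(FPKM + 1) (-0.38) and log2(FPKM + 0.1) (-0.39). GSDME fell by 0.32 (adjusted p = 0.0272), a call lost with the offset (-0.18) and without any 1 library other than Lv_LINC00673 replicate 1 (adjusted p 0.0678 to 0.0805). It was also lost with library totals (-0.16) and limma on either FPKM scale (-0.15 and -0.16). CASP6 (-0.34, adjusted p = 0.174) did not pass, except with the offset (-0.47, adjusted p = 0.0429). Nor did CASP1 pass (0.66, adjusted p = 0.651), which was under 1.1 CPM in every library and was at -1.05 without Lv_LINC00673 replicate 2.

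Of 9 other IAP genes and antagonists tested, 2 were higher and 1 was lower (median -0.21). With the offset 1 was higher and 1 lower, and the median changed sign to 0.09. BIRC6, a giant ubiquitin-conjugating IAP, stood at 41.9, 60.5 and 38.8 CPM in the Lv_LINC00673 libraries and at 24.0, 13.5 and 16.7 CPM in the Lv_NC libraries. It rose by 1.38 on the log2 scale (edgeR adjusted p = 0.00676) and by 0.50 with the offset. NAIP also rose by 1.38 (adjusted p = 0.0204), but it has near-identical copies, was under 1.2 CPM, and lost the call with the offset and without replicate 2 or 3 of either group (adjusted p 0.0621 to 0.0794). XIAP, the direct caspase inhibitor, was at 0.74 (adjusted p = 0.0707), at 0.93 without Lv_LINC00673 replicate 1 (adjusted p = 0.0299) and at -0.11 with the offset. BIRC5, or survivin (-0.21, adjusted p = 0.109), and BIRC7 (0.30, adjusted p = 0.495) did not pass. The IAP antagonist HTRA2 fell by 0.38 (adjusted p = 0.0418), a call lost with the offset (0.00) and without any 1 library other than Lv_LINC00673 replicate 1 (adjusted p 0.0640 to 0.125). It was also lost with upper-quartile factors (-0.39), library totals (-0.22) and limma on either FPKM scale (-0.23 on both).

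Of 21 ubiquitin and kinase regulators of the TNF receptor complex, 4 were higher and 5 were lower (median -0.21). The counts were 2 higher and 5 lower with the offset (median -0.07). TAB2 and TAB3, which bind the ubiquitin chains that BIRC2 and its partners build, were both higher. TAB2 was at 51.4 ± 8.52 against 21.3 ± 6.65 CPM (SD, n = 3, log2 fold change 1.27, edgeR adjusted p = 0.00689; 0.82 with the offset), and TAB3 rose by 1.35 on the log2 scale (adjusted p = 0.00506; 0.58 with the offset). TBK1, which phosphorylates RIPK1, rose by 1.00 (adjusted p = 0.0362), a call lost with the offset (0.49, adjusted p = 0.0551) and without replicate 2 or 3 of either group (adjusted p 0.0638 to 0.125). TNFAIP3, or A20, which edits ubiquitin on RIPK1, was at 43.2, 43.3 and 43.2 CPM against 58.6, 58.3 and 59.3 CPM. It fell by 0.44 on the log2 scale (edgeR adjusted p = 0.00873; -0.57 with the offset), and was chosen after its values were seen. The TNFAIP3 call was lost with limma on either FPKM scale (-0.26 and -0.28).

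In the necroptosis list 4 of 6 genes were tested, with none higher and 2 lower in both fits (median -0.18, and -0.22 with the offset). RIPK3, the kinase that RIPK1 activates in necroptosis, had 0 counts in all 6 libraries, as did the sensor ZBP1, while its substrate MLKL was present at 10.02 to 12.9 CPM and did not pass (log2 fold change 0.10, adjusted p = 0.641). PGAM5 fell by 0.56 on the log2 scale (edgeR adjusted p = 0.00450; -0.22 with the offset). TICAM1, the TRIF adaptor, fell by 0.46 (adjusted p = 0.0261), a call lost without replicate 2 or 3 of either group (adjusted p 0.0706 to 0.0999). It was also lost with library totals (-0.30), limma on either FPKM scale (-0.28 and -0.30) and the offset taken from the longest transcript (-0.18).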

How the data were processed

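No source used here names the aligner, counter, annotation release or strand setting; per the submitters' processing notes the build was hg38. The authors deposited raw read counts per gene and FPKM values per gene for all 6 libraries, and 0 columns were left unmatched. Rows without a gene symbol (3.22 to 4.26% of counts per library) stayed in library sizes and tests and are not named.

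The 9 genes and the pathway lists were chosen with earlier results of these data known. After filterByExpr and TMM scaling, counts went into the robust quasi-likelihood test of edgeR 4.0.16 in R 4.3.3, two-sided, with Benjamini-Hochberg adjustment over all 21933 genes tested. Adjusted p-values come from edgeR except where another tool is given. SE and 95% intervals are of the log2 fold change, Lv_LINC00673 over Lv_NC. The offset fit used per-library splines (5 degrees of freedom) of GC content and log2 length of the median GENCODE release 29 transcript. It entered 16767 genes. The scripts were tested on simulated data.

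Besides the members, the rule named up to 3 genes per list, those past the threshold whose fold change was largest and with a mean of at least 1 CPM, every IAP gene and caspase tested (some are not reported here), and the 2 genes nearest to a member. The 20 alternatives changed the scaling, the filter, the model or the libraries, and used limma 3.58.1, including log2(FPKM + 1), and DESeq2 1.42.0. Coordinates (1-based) and promoters are from RefSeq, GRCh38.p14. Promoters were read for 6 of the 9 members and BIRC3. A chi-square comparison of the 6 pairs of libraries within groups found none deposited more than once.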

Additional observations from a re-analysis of the deposited data

How the results depend on the processing

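With 3 libraries a group, the Lv_NC values spread from 8.62 to 17.6 CPM for BIRC2 and from 1.07 to 2.56 CPM for FAS. FAS had only 87 to 262 counts per library, and TNFRSF10A and TNFRSF10D had too few counts to test. The parts of replicate spread and of counting error were not tested. The GC and length offset depends on the transcript chosen for each gene: with the longest transcript in place of the median one, a choice added after seeing the data, CFLAR became -0.72 (adjusted p = 0.00577). TNFRSF10B was at -0.41 with the longest transcript and at -0.19 with the median one. The labels do not say whether libraries with the same replicate number share a culture or batch. The correlations of same-numbered deviations were -0.12, -0.11 and 0.00, and no library correlated best with its own number. These deviations also carry the GC pattern of the libraries, so the correlations cannot decide whether a batch was shared. With the replicate number as a block, TNFRSF10B was at -0.47, BIRC2 at 1.14 and RIPK1 at 0.65, none past the threshold, so 0 members were higher and 0 lower, and of the other pathway genes 6 were higher and 1 lower. Over all 21933 genes tested, the block left 800 higher and 408 lower, against 3145 and 2738 without it. With the offset and the block together, TNFRSF10B was at -0.19 and no longer past the threshold, FAS was at 0.79 and past it, TNFRSF1A was at 0.029 and CFLAR at 0.12, 0 members were lower, and 7 other genes were higher and 9 lower. Over all 16767 genes in that fit, 2014 were higher and 1997 lower, against 2801 and 2671 with the offset alone.

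FAS passed with upper-quartile factors (0.90), library totals (1.07), a filter of 1 CPM or more in 3 libraries (0.94), DESeq2 (0.87), limma-voom (0.99), and limma on log2(FPKM + 1) (0.44) and log2(FPKM + 0.1) (1.02). TNFRSF1A passed with RLE factors (-0.31), DESeq2 (-0.32) and limma-voom (-0.29), each of which made 2 members lower, as did the longest-transcript offset, and changed sign with the offset (0.029; 0.068 with the longest transcript). CFLAR changed sign with library totals (0.13) and the offset (0.13), and CASP8 with library totals (0.036), a scaling that moved the median of all genes from 0.05 to 0.22. The number of other pathway genes lower was 7 with library totals and 6 with limma on either FPKM scale. Over all genes tested, the number lower fell from 2738 to 1225 with library totals. It was 1220 and 1244 with limma on log2(FPKM + 1) and log2(FPKM + 0.1). The number higher rose from 3145 to 4049, 3522 and 3582 in the same order. The CFLAR to CASP8 difference changed sign with raw counts (0.084). The causes were not tested.

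Leaving out 1 library gave ranges of 0.64 to 1.28 for FAS, -0.39 to -0.25 for TNFRSF1A, -0.51 to -0.46 for TNFRSF10B, 0.58 to 0.68 for RIPK1, 0.87 to 1.35 for BIRC2, -0.10 to 0.025 for CFLAR, -0.28 to -0.00 for CASP8, -0.53 to -0.35 for LINC00673 and -0.30 to 0.25 for the ratio. The number of members higher was 1 to 3 and lower 1 to 2, and of other pathway genes 7 to 14 and 7 to 19. Over all genes tested in these fits, 1453 to 3254 were higher and 1172 to 3269 lower.

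Of 558 values of the other named genes under alternatives, 456 kept direction and side of the threshold, 85 lost and 6 gained the call, and 11 changed sign. The last were HTRA2 with the offset (0.0011, and 0.00078 with the block), XIAP with the offset (-0.11, -0.11 with the block, -0.015 with the longest transcript), BIRC5 (0.032) and CASP10 (-0.050) with the longest transcript, CASP10 without Lv_LINC00673 replicate 3 (-0.091, in a range of -0.091 to 0.38 when 1 library is left out), CASP1 without Lv_LINC00673 replicate 2 (-1.05, range -1.05 to 1.43) and BIRC3 without replicate 1 of either group (0.0034 and 0.015, range -0.51 to 0.015). Of 320 counts per list, 230 stayed within 1.5 times and 90 moved further. The ratio of TNFRSF10D to TNFRSF10B gave no value, since TNFRSF10D is listed at 0 throughout.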

Other observations

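A pair of genes of the lists, chosen after their values were seen, had 1 library far from the rest of its group. SPATA2, which links the deubiquitinase CYLD to the TNF receptor complex, stood at 14.6, 9.74 and 33.6 CPM in Lv_LINC00673 replicates 1 to 3, against 37.98, 42.3 and 40.1 CPM in the Lv_NC libraries. The log2 fold change was -1.06 (SE 0.42, edgeR adjusted p = 0.113). DIABLO, or SMAC, which releases caspases from IAPs, stood at 45.2 CPM in Lv_NC replicate 2, against 89.7 and 96.5 CPM in the other Lv_NC libraries and 64.2 to 70.2 CPM in the Lv_LINC00673 libraries (log2 fold change -0.22, edgeR adjusted p = 0.556).

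The antisense gene CFLAR-AS1 had fewer counts in all 3 Lv_LINC00673 libraries (53, 64 and 78) than in any Lv_NC library (142, 106 and 164), while CFLAR itself did not pass the test. These are raw counts with no test, and every Lv_NC library was deeper. Total counts were 76814723 to 87227980 in the Lv_NC libraries and 61815841 to 71237493 in the Lv_LINC00673 libraries. In CPM, 45.1% of all genes tested had no overlap between the groups.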
